A study of Mus musculus with 4 samples.

Results

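The BCL2 family decides whether a T cell passes the point of no return in apoptosis, and 10 of its genes were followed here through 8 clusters of CD8+ T cells sorted from murine BM after stem cell transplantation (SCT). The genes were given as a list of the family and not picked by a cut on their values, though earlier results of these data were known. They were the antiapoptotic Bcl2, Bcl2l1, Mcl1 and Bcl2a1b, the effectors Bax and Bak1, and the BH3-only genes Bcl2l11, Bid, Pmaip1 and Bbc3, 10 of the 17561 genes in the count table. All 10 had at least 100 UMIs over all cells, from 981 for Pmaip1 to 30053 for Bcl2. A UMI (unique molecular identifier) stands for 1 captured RNA molecule.

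The cells came from myeloma-bearing female mice aged 8 to 12 weeks, in which Vk*MYC myeloma (Vk12653) was established before SCT in recipients of C57BL/6 background, wild type or CRBN transgenic. The CRBN animals carry a modified cereblon, the protein through which lenalidomide acts, and the sources used here do not say which groups held which recipients. There were 4 groups: isotype antibody (cIg) with vehicle, αTIGIT with vehicle, isotype with lenalidomide, and αTIGIT with lenalidomide. Antibody was given from transplantation and lenalidomide or vehicle from day 14. CD8+ T cells were sorted from BM on day 28, 5 mice were pooled per group, and each pool gave 1 library for 5′ gene expression and TCR sequencing. The deposited tables call the libraries 1 to 4 without a treatment, so no value below belongs to a treatment and no treatments were compared. Each value is therefore given over all cells of a cluster and in each of the 4 libraries, which differ by treatment and are not replicates of each other. The authors had formed the clusters on the expression of the same cells, so a difference between clusters is a description and no test was made. Intervals are at the 95% level and cover counting error only.

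Libraries held 1725 to 4237 cells and 15556967 to 38440687 UMIs, with a median of 7115 to 7669 UMIs per cell, 11754 cells in all. A total of 112 cells carried a barcode also found in another library, and their removal changed no call. All 7 CD8 T cell markers were present in every cluster, with a summed level of 4128 to 8642 CPM (counts of a gene or list scaled to a common total of UMIs). Cd4 was at 0 in Tn, Tcm, GzmB+ Teff and TIGIT+ Teff and at most 1.53 CPM elsewhere. Naive markers summed to 1576 CPM in Tn and 187 to 721 CPM elsewhere, and cycling markers to 2861 CPM in cycling cells and 41.5 to 331 CPM elsewhere. Exhaustion markers summed to 2397 CPM in TIM-3+ Tex, 1710 CPM in TIGIT+ Teff, 1305 CPM in GzmA+ Tex and 1295 CPM in transitory Teff. They summed to 1247 CPM in cycling cells, 739 CPM in GzmB+ Teff, 152 CPM in Tcm and 85.7 CPM in Tn. Tigit was at 567 CPM in TIM-3+ Tex and 313 CPM in TIGIT+ Teff, and Havcr2, the TIM-3 gene, at 76.7 and 78.8 CPM. Clusters keep the authors' names. Transcripts of 12 macrophage genes summed to 1642 CPM in GzmA+ Tex (1166 to 1842 in single libraries) and to 13.1 to 107 CPM in the other clusters. Nuclear transcripts summed to 7416 CPM in TIGIT+ Teff and to 2681 to 3480 CPM elsewhere. The smallest set of cells was TIM-3+ Tex of library 3, with 31 cells.

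Apoptosis through mitochondria begins when BAX and BAK1 permeabilize the outer mitochondrial membrane and release cytochrome c. Antiapoptotic members such as BCL2, BCL-XL (from Bcl2l1), MCL1 and the A1 proteins hold BAX, BAK1 and their activators in check, and BH3-only proteins such as BIM (Bcl2l11), BID, NOXA (Pmaip1) and PUMA (Bbc3) relieve that block or activate the effectors directly. In CD8+ T cells, IL-7 maintains BCL2 in resting cells, A1 follows antigen receptor and NF-κB signalling, and BIM is known for the loss of effector cells when a response contracts.

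Bcl2l11 and Bbc3 are both known targets of FOXO transcription factors, and parts of their promoters are shown because these genes stood at opposite ends of the order of clusters below. RefSeq promoter windows (250 bases before to 50 after a start, GRCm38.p6) matched 9 of the 10 genes with 14 windows. The FOXO core GTAAACA, searched on both strands, lay in 1 window of each gene and in 3.65% of all 32851 windows. In capitals is this core, which on the strand shown reads GTAAACA in Bcl2l11 (chr2:128125788-128125907, + strand) and TGTTTAC in Bbc3 (chr7:16310037-16310156, + strand, within an intron of longer annotated Bbc3 transcripts).
Bcl2l11: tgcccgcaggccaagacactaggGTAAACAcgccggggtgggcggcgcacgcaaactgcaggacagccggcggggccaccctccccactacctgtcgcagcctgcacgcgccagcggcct
Bbc3: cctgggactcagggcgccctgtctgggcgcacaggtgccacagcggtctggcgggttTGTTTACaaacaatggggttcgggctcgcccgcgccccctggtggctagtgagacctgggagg
The core started 227 bases before the Bcl2l11 start and 167 bases before the Bbc3 start. No other member window held it. The E-box CACGTG lay in windows of Bax and Bbc3 and in 7.15% of all windows. An NF-κB consensus of 10 letters (0.411% of all windows) and the STAT letters TTCNNNGAA (8.3%) lay in none of the 14 member windows. These matches are descriptions of letters and not sites of binding.

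Bcl2a1b is 1 of several near-identical mouse copies, and the stretch before its start is shown with that of Bcl2a1d because reads of the copies may be assigned to either. The stretches lie at chr9:89199023-89199164 (+ strand) for Bcl2a1b and chr9:88731915-88732050 (- strand) for Bcl2a1d, and the capital marks the base that differs.
Bcl2a1b: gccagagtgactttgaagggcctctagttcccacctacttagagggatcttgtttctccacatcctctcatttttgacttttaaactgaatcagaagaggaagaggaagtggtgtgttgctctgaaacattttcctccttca
Bcl2a1d: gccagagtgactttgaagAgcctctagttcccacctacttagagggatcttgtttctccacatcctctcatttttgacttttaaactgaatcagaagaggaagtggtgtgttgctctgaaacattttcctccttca
The Bcl2a1d stretch lacked 6 bases of the Bcl2a1b stretch and was 95.1% identical to it, and that of Bcl2a1a was 100% identical. The transcripts of Bcl2a1d and Bcl2a1a were 99.1% and 98.2% identical to that of Bcl2a1b over 817 bases. Levels of Bcl2a1b are therefore uncertain as levels of a single copy. The table assigned 3960 UMIs to Bcl2a1b, 2879 to Bcl2a1d, 73 to Bcl2a1c and 32 to Bcl2a1a.

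Among the antiapoptotic genes, Bcl2 was highest in resting cells. Its level in Tn was 424 CPM (412 to 436), with 438, 400, 423 and 433 CPM in libraries 1 to 4. In Tcm it was 402 CPM, with 373, 400, 429 and 419 CPM. Libraries of Tn and Tcm thus overlapped, and each of them stood above the 4 libraries of every other cluster except library 4 of TIGIT+ Teff. Transitory Teff had 233 CPM (233, 203, 144 and 274 in libraries 1 to 4), GzmB+ Teff 259 CPM (240, 240, 208 and 303) and TIGIT+ Teff 291 CPM (317, 264, 211 and 420). GzmA+ Tex had 255 CPM (223, 272, 248 and 290), TIM-3+ Tex 258 CPM (250, 199, 153 and 310) and cycling cells 158 CPM (162, 140, 100 and 192). In the order of levels Tn, Tcm, TIGIT+ Teff, GzmB+ Teff, TIM-3+ Tex, GzmA+ Tex, transitory Teff and cycling cells, the intervals of GzmB+ Teff, TIM-3+ Tex and GzmA+ Tex overlapped. After each cell was thinned to 2500 UMIs, 62.5% of Tn, 60.6% of Tcm, 38.4% to 44.7% of the Teff and Tex clusters and 30.3% of cycling cells held a Bcl2 UMI. Lyz2, a macrophage gene used as a gauge of free macrophage RNA, then gave a UMI in 0.0745% of Tn (1 of 1342 cells).

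Libraries differed in Bcl2 in the same order in several clusters. Library 4 had the highest Bcl2 level in all 6 clusters of Teff, Tex and cycling cells, and library 3 the lowest in 5 of these 6, the exception being GzmA+ Tex. In transitory Teff, library 3 had 144 CPM (125 to 166) and library 4 had 274 CPM (260 to 289). In cycling cells the levels were 100 CPM (91.3 to 110) and 192 CPM (183 to 203). In Tn the same libraries had 423 CPM (398 to 448) and 433 CPM (411 to 457), so their intervals overlapped there and did not in the other clusters named. Each library is a separate pool and a separate treatment, and pool, treatment, any difference in mouse genotype and library cannot be told apart.

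Mcl1, which binds BIM and BAK1 and turns over quickly, stayed within a narrow range. It was lowest in Tn with 217 CPM (209, 228, 211 and 221 in libraries 1 to 4) and cycling cells with 220 CPM (232, 199, 245 and 196), and highest in TIGIT+ Teff with 322 CPM (324, 322, 333 and 275). The other 5 clusters lay between 249 and 266 CPM. Bcl2l1, the BCL-XL gene, was lowest in GzmB+ Teff with 14.3 CPM (11.8, 14.6, 14.6 and 15.6) and highest in Tcm with 29.8 CPM (31.3, 25.8, 23.2 and 31.7). In Tn it was 16.8 CPM (15.6, 14.4, 16.4 and 20), below each library of Tcm. Intervals of all neighbours in its order overlapped, and only 3.42% to 6.99% of thinned cells held a Bcl2l1 UMI.

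Bcl2a1b was low in Tn and Tcm and higher in every other cluster. It was at 12.8 CPM in Tn (14.5, 13.6, 11.2 and 12.4 in libraries 1 to 4) and 10.3 CPM in Tcm (12.3, 8, 7.97 and 10.2). It was at 56.9 CPM in transitory Teff (49.9, 63.9, 64.1 and 55.9), and highest in TIM-3+ Tex with 67.2 CPM (69.1, 67.3, 112 and 60.5). The remaining clusters had 37.3 CPM in GzmB+ Teff, 49.1 CPM in TIGIT+ Teff, 51.1 CPM in GzmA+ Tex and 46.1 CPM in cycling cells, and their single libraries ran from 30.7 to 59.3 CPM. Every library of every Teff, Tex and cycling cluster was above every library of Tn and Tcm. The share of thinned cells with a Bcl2a1b UMI was 3.2% in Tn, 2.49% in Tcm and 8.47% to 13.4% in the others. The near-identical Bcl2a1d had 2.75 CPM in Tn (3.91, 2, 2.23 and 2.85) and 59.9 CPM in TIM-3+ Tex (63.9, 52.3, 109 and 53.8). Over the 32 sums of a cluster in a library, the log2 levels of Bcl2a1b and Bcl2a1d had a Pearson r of 0.97, which is a description only, since the copies share sequence and the points share libraries.

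**Figure D1:**
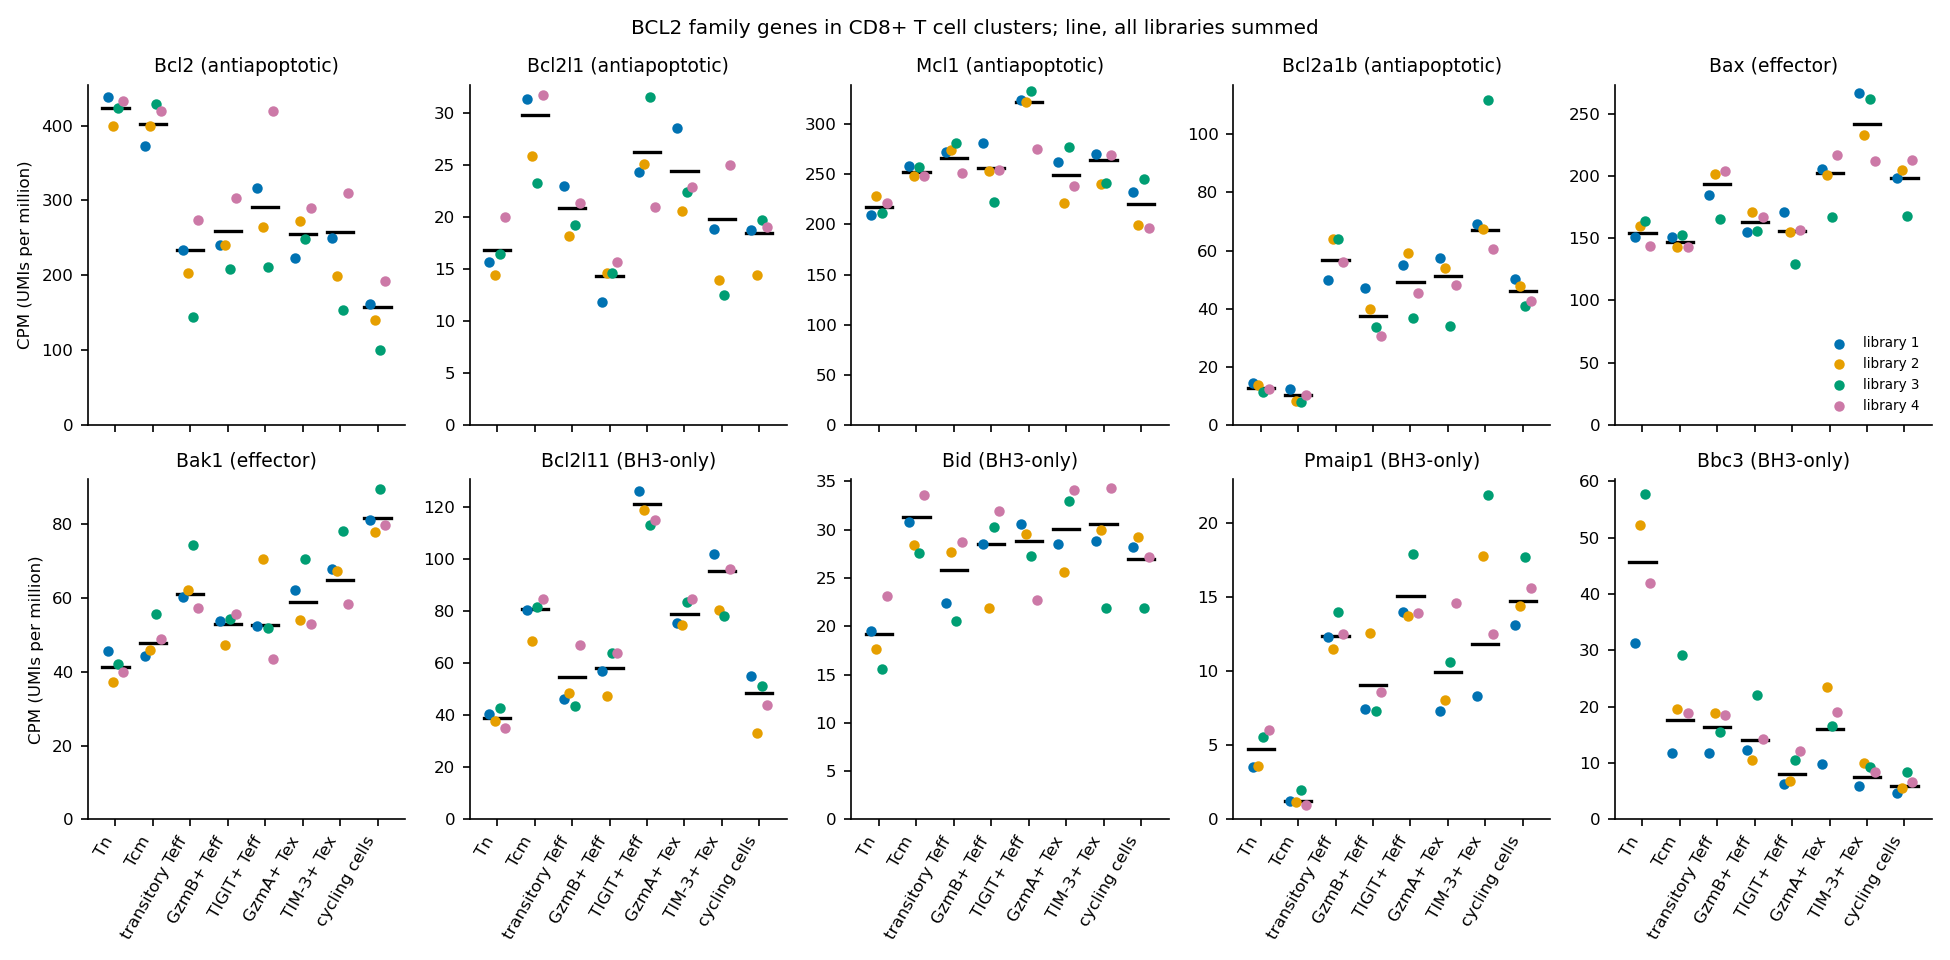
Level of each of the 10 BCL2 family genes (CPM, summed UMIs, axis of each panel starting at 0) in the 8 clusters, with points for libraries 1 to 4 and a line for all libraries summed. Bcl2 and Bbc3 are highest in Tn at 424 and 45.7 CPM, Bcl2a1b is lowest in Tn and Tcm at 12.8 and 10.3 CPM, and Bcl2l11 peaks in TIGIT+ Teff at 121 CPM.

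Over all libraries, both effectors had their lowest level in a resting cluster. Bax, whose product inserts into the outer mitochondrial membrane on activation, was lowest in Tcm with 147 CPM (151, 143, 153 and 143 in libraries 1 to 4) and highest in TIM-3+ Tex with 242 CPM (267, 233, 262 and 212). Tn had 154 CPM (151, 160, 164 and 144), so that every library of TIM-3+ Tex was above every library of Tn and Tcm. Bax was at 194 CPM in transitory Teff, 203 CPM in GzmA+ Tex and 199 CPM in cycling cells. GzmB+ Teff had 163 CPM and TIGIT+ Teff 156 CPM, with 129 CPM in library 3, below every library of Tn and Tcm. In the order GzmB+ Teff, TIGIT+ Teff, Tn and Tcm, the intervals of all neighbours overlapped. Bak1, whose product already resides in that membrane, followed a different order. It was lowest in Tn with 41.2 CPM (45.7, 37.2, 42.1 and 39.9) and highest in cycling cells with 81.8 CPM (81.2, 77.9, 89.6 and 79.8). Transitory Teff had 61.1 CPM (60.3, 62.2, 74.4 and 57.3) and TIM-3+ Tex 65 CPM (68, 67.3, 78.1 and 58.5). No library of any other cluster reached the lowest cycling value of 77.9 CPM except library 3 of TIM-3+ Tex, with 31 cells. Between 28.7% and 45.5% of thinned cells held a Bax UMI and between 9.84% and 17.8% a Bak1 UMI.

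Of the BH3-only genes, Bcl2l11, which codes for BIM, was lowest in Tn and highest in TIGIT+ Teff. Tn had 38.8 CPM (40.3, 37.6, 42.8 and 35.2 in libraries 1 to 4) and TIGIT+ Teff 121 CPM (126, 119, 113 and 115). TIM-3+ Tex had 95.5 CPM (102, 80.6, 78.1 and 96.3), Tcm 80.7 CPM (80.3, 68.4, 81.7 and 84.6) and GzmA+ Tex 78.8 CPM (75.3, 74.6, 83.6 and 84.5). All 4 libraries of these clusters stood above all 4 of Tn. GzmB+ Teff had 58.3 CPM, transitory Teff 54.5 CPM (46.4, 48.7, 43.5 and 67) and cycling cells 48.6 CPM (55.2, 33, 51.4 and 43.9), and library 2 of cycling cells was below all of Tn. In this order the intervals of Tcm and GzmA+ Tex overlapped, as did those of GzmB+ Teff with transitory Teff and of transitory Teff with cycling cells. A Bcl2l11 UMI was present in 9.91% of thinned Tn, 17.2% of Tcm, 19.9% of TIM-3+ Tex and 26% of TIGIT+ Teff.

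Bbc3, which codes for PUMA, was highest in Tn. Its level there was 45.7 CPM (31.3, 52.3, 57.7 and 41.9 in libraries 1 to 4), against 17.7 CPM in Tcm (11.7, 19.5, 29.2 and 18.8) and 16.4 CPM in transitory Teff (11.7, 18.8, 15.5 and 18.6). Every Tn library was above every library of the other 7 clusters. Lower levels were 16.1 CPM in GzmA+ Tex, 14.1 CPM in GzmB+ Teff, 8.1 CPM in TIGIT+ Teff (6.28, 6.84, 10.5 and 12.2), 7.61 CPM in TIM-3+ Tex (5.97, 10, 9.37 and 8.44) and 5.97 CPM in cycling cells (4.69, 5.5, 8.49 and 6.58). Library 1 had the lowest Bbc3 value in 7 of the 8 clusters, the exception being GzmB+ Teff. A Bbc3 UMI was found in 9.54% of thinned Tn and in 1.4% to 4.53% of the other clusters.

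Pmaip1, which codes for NOXA, an antagonist of MCL1, was scarce and nearly missing from Tcm. Only 31 UMIs fell in 3418 Tcm cells, or 1.21 CPM (1.27, 1.18, 1.99 and 0.943 in libraries 1 to 4), against 4.77 CPM in Tn (3.52, 3.6, 5.58 and 6.02). The level was 12.4 CPM in transitory Teff (12.3, 11.5, 14 and 12.5), 15.1 CPM in TIGIT+ Teff (14, 13.7, 17.9 and 13.9) and 14.7 CPM in cycling cells (13.1, 14.4, 17.7 and 15.6). All libraries of these clusters stood above all libraries of Tn, which in turn stood above all of Tcm. In thinned cells a Pmaip1 UMI was seen in 0.263% of Tcm, the same share as for Lyz2, a gene of other cells, in Tcm. The free RNA level of Pmaip1 itself was not measured. Bid, which links death receptors to mitochondria once cleaved by caspase-8, was lowest in Tn with 19.2 CPM (19.5, 17.6, 15.6 and 23.1) and highest in Tcm with 31.3 CPM (30.8, 28.4, 27.6 and 33.6), and the intervals of all neighbours in its order overlapped except those of transitory Teff and Tn.

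The first comparison set the 5 Teff and Tex clusters together against Tn, the start of the differentiation path. A gene was called where its level differed at least 2-fold over all cells and the difference had the same sign in all 4 libraries taken singly. Bcl2a1b, Bcl2l11 and Pmaip1 were called higher and Bbc3 lower. The 3 of 10 members called higher compare with 13.5% of the 10991 genes with at least 100 UMIs, and the 1 called lower with 1.82%. Bcl2a1b was 4.23-fold higher (54.3 against 12.8 CPM), a log2 difference of 2.08 (1.83 to 2.34), with 1.99, 2.10, 2.08 and 2.04 in libraries 1 to 4. Bcl2l11 was at 78.6 against 38.8 CPM, a log2 difference of 1.02 (0.87 to 1.17), with 1.09, 0.76, 0.90 and 1.16 in single libraries. Its size thus lay at the 2-fold limit, and without library 1 or library 4 it was 0.95 or 0.96. A denominator without mitochondrial, ribosomal protein and TCR V genes shifts every gene by -0.30 in this comparison, which put Bcl2l11 at 0.72, under the limit, and Pmaip1 at 1.0. Pmaip1 was at 11.8 against 4.77 CPM, a log2 difference of 1.30 (0.89 to 1.74). Bbc3 was 3.61-fold lower (12.6 against 45.7 CPM), a log2 difference of -1.85 (-2.03 to -1.67), with -1.86, -1.76, -1.98 and -1.48 in libraries 1 to 4.

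Bcl2 fell short of the 2-fold limit in this comparison. It was at 255 against 424 CPM, a log2 difference of -0.73 (-0.78 to -0.68), with -0.78, -0.84, -1.11 and -0.54 in libraries 1 to 4, so it was lower in every library. With the other denominator the difference was -1.03. Bak1 had 0.52 and Bid 0.57, and Bcl2l1 and Mcl1 had 0.32 and 0.31, which became 0.02 and 0.01 with the other denominator. Bax had 0.35 over all libraries and -0.06 in library 3, so its direction was not shared by all. The median over the 10 members was 0.44 and over all genes 0.31.

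Tcm had more of the BIM transcript than Tn and less of the PUMA and NOXA transcripts. All 4 genes listed as NK markers had UMIs in Tcm and summed to 670 CPM (592 to 719 in single libraries). In Tn they summed to 30.8 CPM (25.2 to 40.9), and Ncr1 was at 0. The Tcm sum was mostly Fcer1g, Klrb1c and Tyrobp, at 263, 242 and 160 CPM, with Ncr1 at 4.92 CPM. The paper associates Fcer1g with an innate-like T cell subset. This list also reached 510 CPM in GzmA+ Tex, and 57.4 to 200 CPM in the remaining clusters. A TCR was found in 79% of Tcm and 85.5% of Tn cells. Cd8b1 was at 217 CPM in Tcm and 1165 CPM in Tn, Cd8a at 328 and 384 CPM. Whether Tcm held NK cells, and the part of these genes in the values below, was not tested. Against Tn, Bcl2l11 was called higher in Tcm, with a log2 difference of 1.06 (0.90 to 1.21) and 1.0, 0.86, 0.93 and 1.27 in libraries 1 to 4. Without library 4 it was 0.95, under the limit, and after thinning 0.85. The 1 of 10 members called higher compares with 5.51% of all genes, and the 2 called lower, Pmaip1 and Bbc3, with 1.98%. Pmaip1 differed by -1.98 (-2.67 to -1.31), with -1.47, -1.60, -1.49 and -2.68 in libraries 1 to 4, and Bbc3 by -1.37 (-1.55 to -1.18), with -1.42, -1.42, -0.98 and -1.16. Bcl2l1 had 0.83 (0.59 to 1.07) and Bid 0.70 (0.48 to 0.93), higher in each library yet under 2-fold. Bcl2 had -0.08, Bax -0.07, Mcl1 0.21, Bak1 0.22 and Bcl2a1b -0.31. The members' median was 0.07 and that of all genes 0.13. The other denominator shifts every gene by -0.14 here and put Bcl2l11 at 0.91.

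Of the 10 members, 1 passed the call between cycling cells and the 5 Teff and Tex clusters, Bbc3, which was lower in cycling cells. Bak1, Pmaip1 and Bax, 3 of the 10, had a log2 difference above 0, beside 48.7% of all genes. The 0 of 10 members called higher compare with 5.54% of all genes, and the 1 called lower, Bbc3, with 2.67%. Bbc3 differed by -1.08 (-1.35 to -0.83), with -0.88, -1.49, -0.79 and -1.18 in libraries 1 to 4, and was under the limit without library 2. Bcl2 and Bcl2l11 both differed by -0.69, Mcl1 by -0.30, Bcl2a1b by -0.24 and Bax by 0.01. Bid differed by -0.08 (-0.21 to 0.06), with 0.03, 0.13, -0.29 and -0.20 in libraries 1 to 4, so its direction was not shared. Bak1 was 0.47 higher (0.38 to 0.55), with 0.43, 0.39, 0.52 and 0.51 in libraries 1 to 4, and Pmaip1 0.32 higher (0.13 to 0.52). Cycling cells also had the deepest profiles, with a median of 13959 UMIs per cell against 5545 to 10378 in the Teff and Tex clusters, and its part in these values was not tested.

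**Figure D2:**
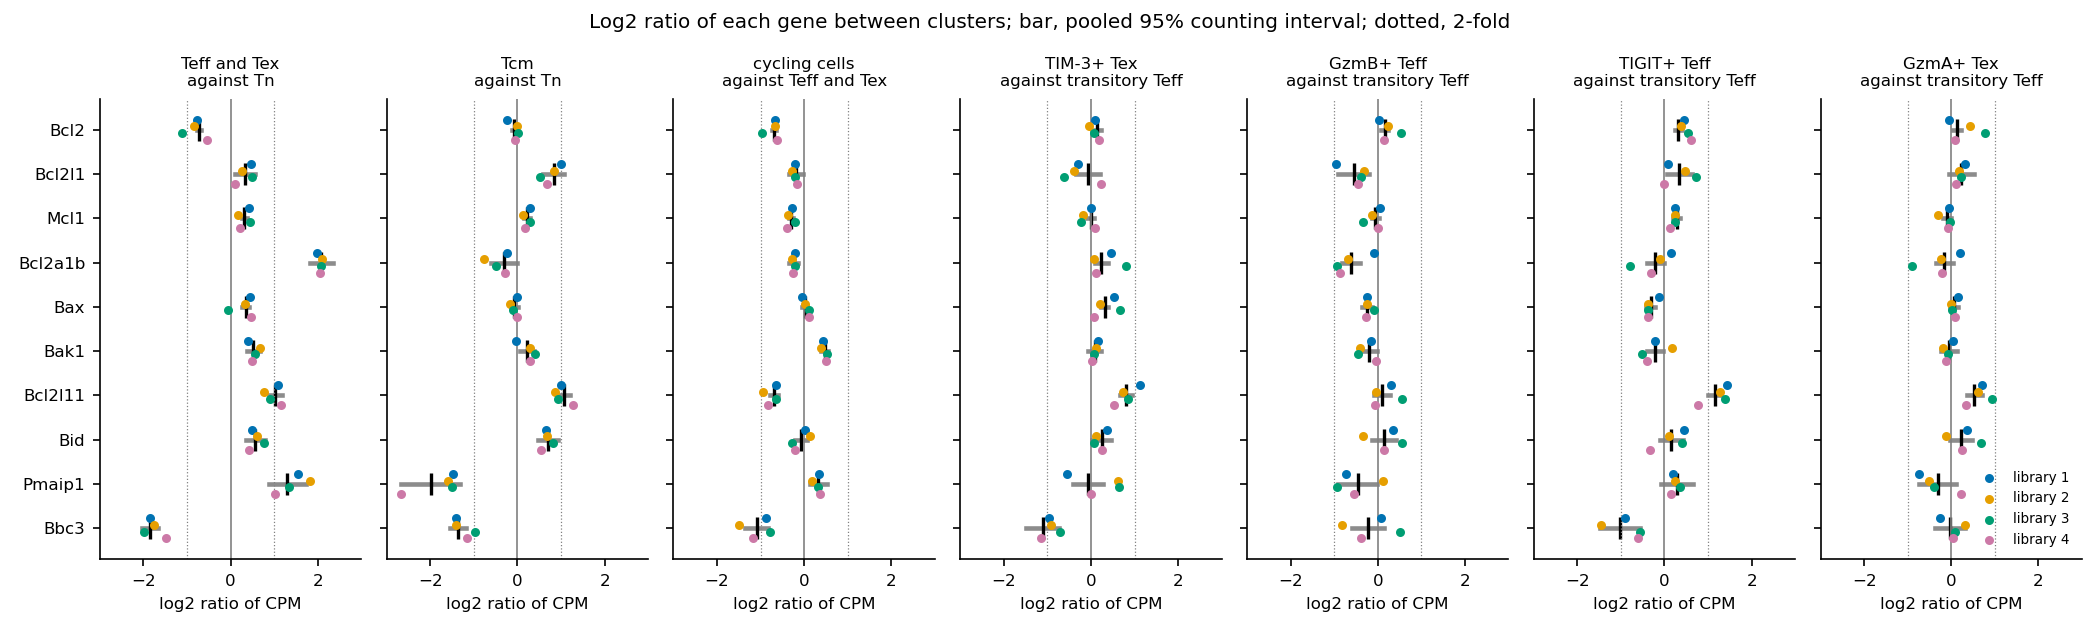
Log2 ratio of each member's summed-UMI level in 7 comparisons of clusters, with points for libraries 1 to 4, a black tick and grey bar for all cells and their 95% interval, and dotted lines at the 2-fold limits. In Teff and Tex against Tn, Bcl2a1b lies at 2.08 and Bbc3 at -1.85 with all 4 libraries past the limits, and Bcl2 lies at -0.73.

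Within the Teff and Tex clusters, levels were compared with transitory Teff, cells described as an intermediate between early and terminal states. TIGIT+ Teff, the cluster with the highest BIM transcript, had 1 of 10 members called higher against 16% of all genes, and 1 called lower against 0.637%. The higher one was Bcl2l11, with 1.15 (1.0 to 1.30) and 1.44, 1.28, 1.38 and 0.78 in libraries 1 to 4, and 0.99 without library 1. The lower one was Bbc3, with -1.02 (-1.48 to -0.57) and -0.90, -1.46, -0.56 and -0.61, and it was under the limit without library 1, 2 or 4. Bcl2 had 0.32, Mcl1 0.28 and Bcl2a1b -0.21. The share of all genes called higher in this cluster rose with the span of the gene, from 4.01% under 10 kb and 12.2% for 10 to 50 kb to 32.1% for 50 to 100 kb and 41.9% over 100 kb. The median log2 difference was -0.06 for genes that span under 10 kb, 0.40 for 10 to 50 kb, 0.84 for 50 to 100 kb and 0.95 for over 100 kb, and over all genes it was 0.39. Bcl2l11 spans 36.5 kb, Bcl2 176 kb, Bbc3 9.81 kb and Mcl1 4.39 kb. The part of gene length and of the nuclear transcripts given above in the Bcl2l11 difference was not tested.

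TIM-3+ Tex, the cluster with the highest exhaustion markers, had 0 of 10 members called higher against 1.71% of all genes and 1 called lower against 1.97%. Bbc3 was the lower one, with -1.11 (-1.50 to -0.73) and -0.97, -0.91, -0.72 and -1.14 in libraries 1 to 4, and was -0.72 after thinning, which ended the call. Bcl2l11 had 0.81 (0.67 to 0.95), with 1.13, 0.73, 0.85 and 0.52 in single libraries, and was 1.02 without library 4, past the limit. Bax had 0.32, Bcl2a1b 0.24 and Bcl2 0.15. GzmB+ Teff had 0 members called in either direction, against 2.74% of all genes called higher and 2.45% lower. There Bcl2l1 had -0.54 and Bcl2a1b -0.61. GzmA+ Tex had 0 called as well, against 3.51% and 0.801%, and its largest difference was that of Bcl2l11, 0.53. Macrophage transcripts in this cluster reached 1642 CPM, with Lyz2 in 21.5% of thinned cells, and their part in its values was not tested.

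The balance of BCL2 and BIM, which bind each other, was followed as the ratio of their UMIs, a measure in which the denominator of CPM cancels. In Tn there were 10.9 (9.89 to 12.1) Bcl2 UMIs per Bcl2l11 UMI, with 10.9, 10.6, 9.87 and 12.3 in libraries 1 to 4. In Tcm the ratio was 4.98 (4.75 to 5.23), with 4.64, 5.84, 5.25 and 4.95, and in transitory Teff 4.27 (3.93 to 4.64), with 5.02, 4.18, 3.32 and 4.09. It was 2.7 (2.51 to 2.91) in TIM-3+ Tex, with 2.45, 2.46, 1.96 and 3.22, and lowest in TIGIT+ Teff with 2.41 (2.22 to 2.63), with 2.51, 2.23, 1.87 and 3.65. The intervals of these last clusters overlapped. GzmB+ Teff had 4.44, and GzmA+ Tex and cycling cells 3.24 and 3.25. The lowest Tn library, 9.87, was above the highest library of any other cluster, 5.84, so the groups did not overlap.

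Relative to Tn, the log2 change of this ratio was -1.75 over the Teff and Tex clusters, -1.13 in Tcm, -2.18 in TIGIT+ Teff and -2.02 for TIM-3+ Tex. Under all alternatives the Teff and Tex value stayed between -1.80 and -1.63. Alternatives that change only the minimum count, the call, the denominator or the weight of libraries cannot alter this ratio of summed UMIs. Different genes made up the change in different clusters. In Tcm, Bcl2 was within 0.08 of Tn on the log2 scale and Bcl2l11 was 1.06 higher, while transitory Teff had Bcl2 at 233 against 424 CPM and Bcl2l11 at 54.5 against 38.8 CPM. Library 3 had the lowest ratio in 6 of 8 clusters, the exceptions being Tcm and GzmA+ Tex. The ratio of Bcl2 to Bcl2a1b UMIs, both antiapoptotic, went from 33 in Tn and 38.9 in Tcm to 3.43 in cycling cells and 3.84 to 6.95 in the Teff and Tex clusters.

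**Figure D3:**
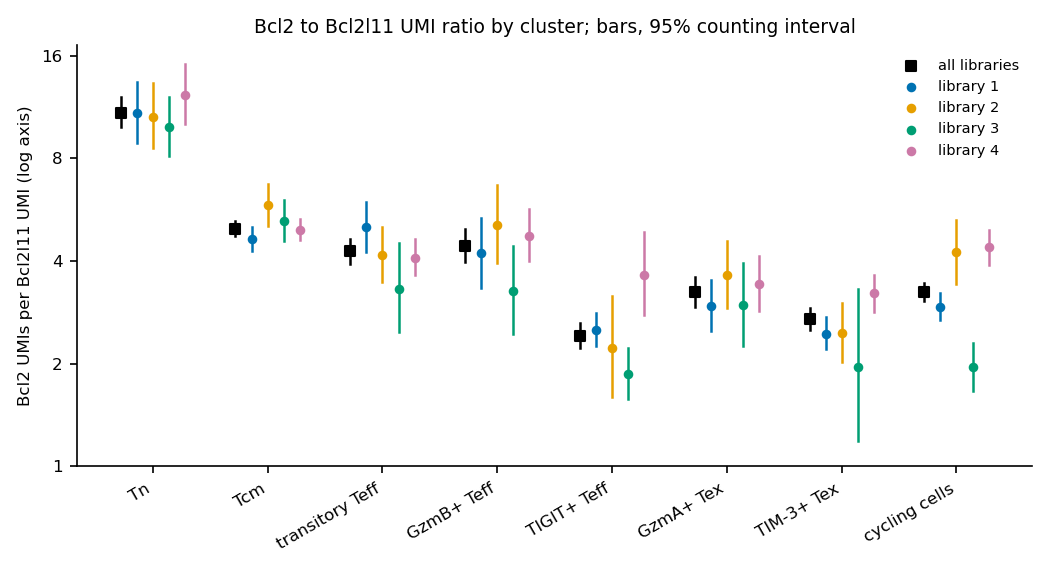
Bcl2 UMIs per Bcl2l11 UMI in the 8 clusters, on a log axis, with squares for all libraries, points for libraries 1 to 4, and bars for 95% intervals. Tn stands at 10.9, Tcm at 4.98, and TIGIT+ Teff lowest at 2.41, and no library of another cluster reaches the lowest Tn library.

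The other genes of the pathway were taken from lists of the rest of the family, the apoptosome and caspases, inhibitors of apoptosis, death receptors and regulators of the members. In Teff and Tex against Tn, Apaf1, the scaffold of the apoptosome, was called higher with a log2 difference of 1.59 (25.9 against 8.62 CPM), and had 12.5, 6.79, 9.31 and 6.34 CPM in libraries 1 to 4 of Tn. Of 16 other family genes, 14 were found and 7 had at least 100 UMIs, and 1 of these, Bcl2a1d, was called higher at 40.4 against 2.75 CPM, a log2 difference of 3.88 (3.36 to 4.45). None of 5 inhibitors of apoptosis was called, and all 5 were above 0, beside 76.3% of all genes. In the list of 6 death receptor genes 1, Tnfrsf1a, was called higher with 1.25. Of all genes, 13.5% were called higher here. The medians of the other family, inhibitor, death receptor and regulator lists lay between 0.23 and 0.44, against 0.31 over all genes.

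Among 13 regulators, 1 was called in Teff and Tex against Tn, and it was lower, beside 1.82% of all genes called lower. Il7r, the IL-7 receptor chain through which BCL2 is maintained, was at 395 CPM in Tn (406, 394, 470 and 324 in libraries 1 to 4) and 69.4 CPM over Teff and Tex, a log2 difference of -2.51. In Tcm it was at 25.5 CPM (15.7, 44.1, 52.5 and 19.8), a difference of -3.96, while Bcl2 there was 402 CPM. The order of clusters by Il7r was thus not their order by Bcl2. Il2rb, a receptor chain shared by IL-2 and IL-15, was called higher in Tcm, at 965 against 458 CPM. The list of 6 death receptor genes had 2 called higher in Tcm, beside 5.51% of all genes. Tnfrsf1a had 1.25 (1.05 to 1.44) and Tnfrsf10b 1.15 (0.52 to 1.83), with 0.07 in its lowest library. Bnip3 of the wider family had 1.15 (0.57 to 1.77) there.

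In cycling cells against Teff and Tex, Il7r with -1.59 and Bach2 with -1.18 were called lower, both of them regulators. No gene of the other family, inhibitor or death receptor lists was called. Of all genes, 5.54% were called higher there and 2.67% lower. Il7r was also called lower against transitory Teff in TIM-3+ Tex, TIGIT+ Teff and GzmA+ Tex, with -2.53, -1.07 and -1.09, the value in TIGIT+ Teff being named after it was seen. In GzmB+ Teff, Tnfrsf10b was called higher, at 3.83 against 1.23 CPM, low levels in both clusters, beside 2.74% of all genes. Genes called higher in TIGIT+ Teff outside the members were the ubiquitin ligases Birc6 with 1.55 and Huwe1 with 1.82, the deubiquitinase Usp9x with 1.69, Apaf1 with 1.5, Xiap with 1.31 and Ripk1 with 1.22. Huwe1 and Usp9x act on MCL1 with opposite effect, removing it or stabilizing it. Foxo3, which codes for a FOXO factor, had 1.53 in that cluster, at 47.5 against 16.5 CPM, and stood at 15.1 to 22.9 CPM in the other clusters. These counts stand beside the 16% of all genes called higher in TIGIT+ Teff. As given above, that share was 32.1% for genes of 50 to 100 kb and 41.9% over 100 kb. The part of gene span in these values was not tested.

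**Figure D4:**
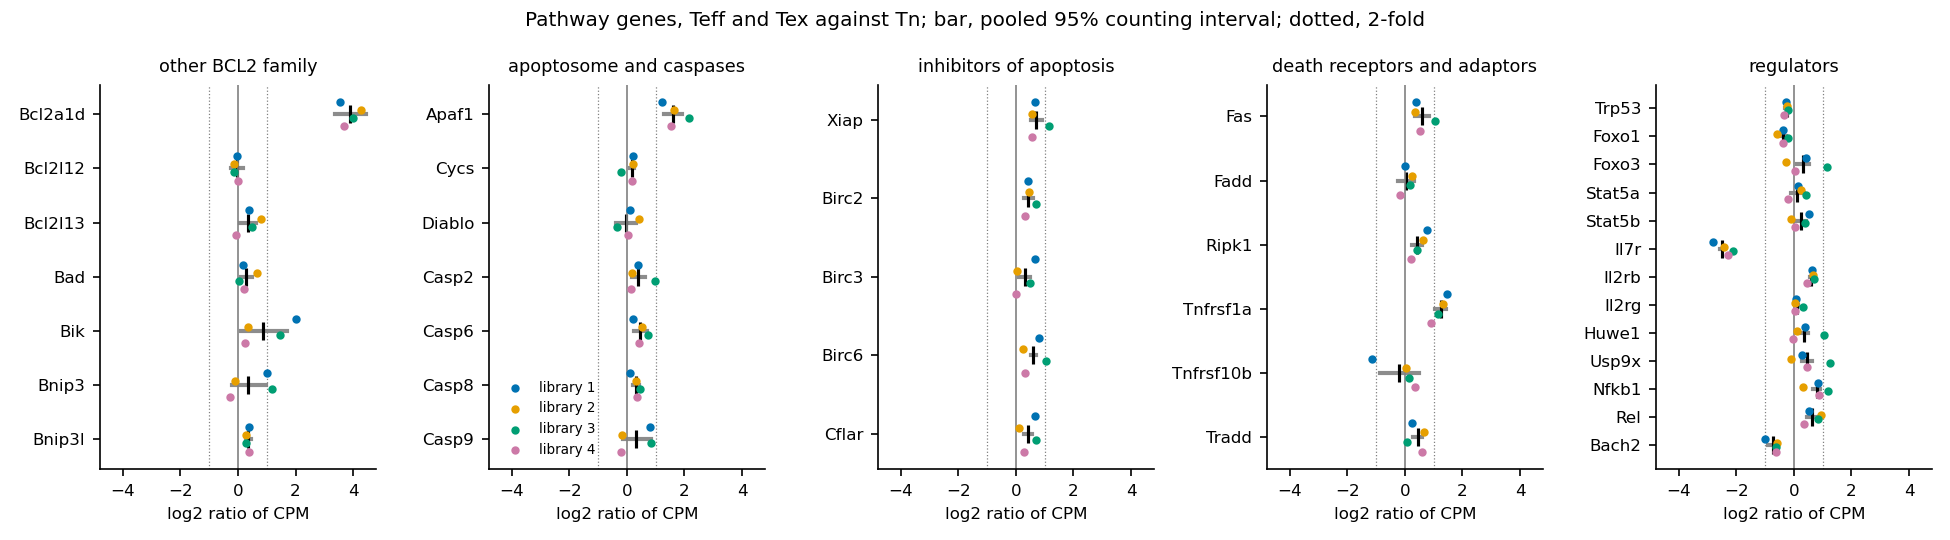
Log2 ratio of genes of the 5 pathway lists in Teff and Tex against Tn, 1 panel per list, with points for libraries 1 to 4, a black tick and grey bar for all cells and their 95% interval, and dotted lines at the 2-fold limits. Bcl2a1d stands at 3.88, Apaf1 at 1.59 and Il7r at -2.51, and most other genes lie between the 2-fold limits.

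The TCR tells whether a cell belongs to a clone, here a TCR found in at least 2 cells of a library, or was seen once. TCRs were found in 7961 cells, with 85.5% of Tn, 51.6% of cycling cells, 44.6% of TIGIT+ Teff and 41% of GzmA+ Tex. In TIGIT+ Teff the median depth was 3524 UMIs in cells of clones and 3598 in single cells, against 6047 in the whole cluster. In GzmA+ Tex it was 5917 and 7716 against 10378 UMIs. A cell counted as single may share its TCR with cells in which none was found. Of the 10 members, Bcl2a1b and Bcl2 are given in full here, in a comparison added after the data were seen. Bcl2a1b was higher in cells of clones in most Teff, Tex and cycling clusters. In Tcm it was not, with 9.27 against 10 CPM and a log2 difference of -0.11 (-1.01 to 0.67), and in Tn, with 34 cells of clones, the interval held 0 (-0.21 to 2.44). In GzmB+ Teff it was at 59 CPM in 141 cells of clones and 17.8 CPM in 361 single cells, a log2 difference of 1.73 (1.13 to 2.33). Cells of clones had 77.8, 64.5, 49.3 and 51.1 CPM in libraries 1 to 4 and single cells 20.9, 18.3, 21.1 and 14.1 CPM, so these did not overlap. Of all genes, 3.71% were called higher in this comparison. Median depth was 4766 UMIs in cells of clones and 7733 in single cells, and after thinning the difference was 1.66. Without the largest clone of each library it was 1.77.

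In cycling cells Bcl2a1b was at 51.2 CPM in cells of clones (57, 55.1, 45.1 and 46.7) and 23.9 CPM in single cells (20.9, 36, 12.7 and 23.7), a log2 difference of 1.10 (0.75 to 1.48), where 2.24% of all genes were called higher. After thinning it was 0.81. In TIGIT+ Teff the difference was 1.27 (0.45 to 2.17), higher in 4 of 4 libraries beside 1.87% of all genes, though 0.56 after thinning. In GzmA+ Tex it was 0.71 (0.08 to 1.36) beside 2.84%, and in transitory Teff 0.34 (0.04 to 0.64) beside 1.77%, both higher in 4 of 4 libraries and under 2-fold. Without the largest clone of each library both were higher in 3 of 4, with 0.69 in GzmA+ Tex and 0.35 in transitory Teff. The GzmA+ Tex value was 1.62 after thinning. In TIM-3+ Tex, with 42 single cells, it was 0.20 (-0.38 to 0.85), higher in 3 of 4 libraries beside 4.06% of all genes called, and the interval held 0. Clone size and position within a cluster cannot be told apart in these values.

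Bcl2 went the other way in some of the same clusters. In GzmB+ Teff it was at 166 CPM in cells of clones and 292 CPM in single cells, a log2 difference of -0.82 (-1.10 to -0.55). The libraries had 84.3, 176, 41.1 and 244 CPM in cells of clones and 248, 246, 263 and 357 CPM in single cells, lower in 4 of 4. In GzmA+ Tex it was -0.70 (196 against 319 CPM), also lower in 4 of 4 libraries. In TIGIT+ Teff it was -1.16 (206 against 461 CPM) and lower in 3 of 4, library 4 having 563 against 401 CPM. In transitory Teff the difference was -0.06, with an interval of -0.20 to 0.09. In cycling cells it was -0.41, lower in 3 of 4 libraries, and -0.04 after thinning. Bcl2 was not called in any of these comparisons. Other members also reached 2-fold in places. In cycling cells Bbc3 differed by -1.01 (-1.79 to -0.20), lower in 4 of 4 libraries, beside 2.37% of all genes called lower. In GzmB+ Teff Bbc3 had 2 UMIs in cells of clones and 55 in single cells, a difference of -2.84 (-5.92 to -0.92). Pmaip1 in TIGIT+ Teff differed by 1.02 (-0.10 to 2.29), higher in 4 of 4 libraries beside 1.87% of all genes. Its interval held 0.

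Library 3, lowest in Bcl2 above, was compared by TCR class. It was picked on these same cells, so its rank in parts of them is not independent of that choice. Among cells of clones it had the lowest Bcl2 level in each of the 6 Teff, Tex and cycling clusters, with 103 CPM (79.6 to 131) in 113 cells of transitory Teff and 35.4 CPM (26.8 to 45.7) in 157 cycling cells, and in the other 4 clusters with 17 to 97 cells and 41.1 to 122 CPM. Without the largest clone of each library it was again the lowest in 6 of 6. Among cells without a TCR it was the lowest in 5 of 6, with 174 CPM (135 to 221) in 36 cells of transitory Teff and 131 CPM (117 to 146) in 152 cycling cells. Among single cells, 5 to 59 per cluster, it was the lowest in 0 of 6, with 187 CPM (144 to 240) in transitory Teff against 256, 181 and 265 CPM in libraries 1, 2 and 4.

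**Figure D5:**
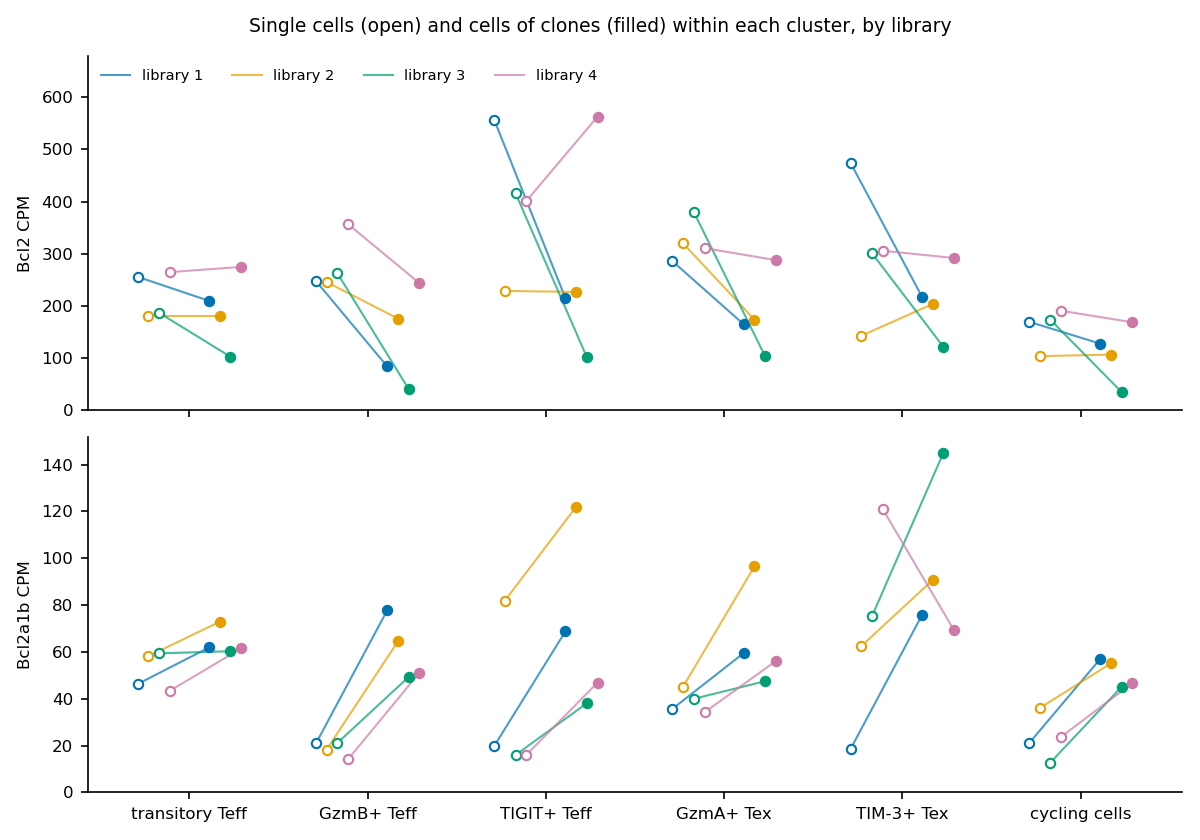
Levels of Bcl2 and Bcl2a1b (CPM, axes from 0) in cells whose TCR was found in at least 2 cells of their library and in cells whose TCR was seen once, for 6 clusters. Filled points are cells of clones, open points single cells, and lines join the values of a library, which in GzmB+ Teff rise for Bcl2a1b and fall for Bcl2 in 4 of 4 libraries.

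For the 5 members with at least 50 CPM over all cells, the genes with the most similar course over the 32 sums of a cluster in a library were found among 2790 genes by Pearson r of log2(CPM + 10). Bcl2 was closest to H2-Ke6, Eef1g and Dennd2d, with r of 0.85, 0.82 and 0.81. Mcl1 was closest to Arid4b, Malat1 and Pde7a (0.87, 0.86 and 0.84), of which Malat1 is a nuclear transcript. Bax was closest to Ubl5, Fkbp1a and Tmem160 (0.88, 0.87 and 0.87), and Bak1 to Gapdh, Calm3 and ENSMUSG00000095742 (0.90, 0.89 and 0.87). Bcl2l11 was closest to Il2rb, Gpr174 and Ptpn22 (0.86, 0.84 and 0.84). Between members, Bcl2 and Bak1 had r of -0.86, Bcl2 and Bbc3 0.61, and Bcl2a1b and Pmaip1 0.84. Points of 1 library share their preparation and depth, so these values only describe likeness.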

How the data were processed

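CD8+ T cells of 4 libraries were profiled with the 10x Genomics 5′ v2 kit. The authors processed reads with cellranger (Cell Ranger 7.00 and mm10 per the submitters' processing notes), downsampled them across libraries, filtered cells by UMIs, mitochondrial share and Cd3e/g and Cd8a, and clustered them with Monocle3. The deposited values are raw counts of UMIs per gene and cell, and the mitochondrial share of the cell table is a fraction computed by the authors. Whether introns were counted is not given in the sources used here. TCR chains were combined by the authors with scRepertoire.

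Here, UMIs were summed per cluster and library and divided by all UMIs of these cells to give CPM. Summed counts equalled the deposited UMI total in 11033 cells, with a largest difference of 58. Ratios of counts had exact conditional binomial intervals, levels exact Poisson intervals and shares Clopper-Pearson intervals. UMIs are molecules and not independent cells, and with 1 library per treatment, unnamed, no test was made. Each cell was thinned at random to 2500 UMIs for shares. Genes needed 100 UMIs over all cells. Symbols and coordinates came from GENCODE M21 (GRCm38), sequences from RefSeq (GRCm38.p6). No doublet caller was run, and an alternative left out cells with a pair of TRB chains. All members were named, and of the other lists up to 3 called genes with the largest ratio per list and comparison, while the comparison of clones was added after the data were seen. Some genes of the apoptosome and caspase list are not reported here, so no count or median of that list is given. Members and lists were chosen with earlier results of these data known. Ratios and intervals were tested on simulated data, and thinning was checked on some of the real cells for the depth reached. Python 3.11.15, numpy 2.4.6, scipy 1.17.1, pandas 2.3.3, matplotlib 3.10.9 and biopython 1.88 were used.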

Additional observations from a re-analysis of the deposited data

How the results depend on the processing

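Of 11 called member ratios, 11 kept their sign under the 16 alternatives and 4 stayed called under all. Dropping the minimum count, the 1.5-fold limit and a call on the level over all cells alone could neither change a sign nor end a call. In Teff and Tex against Tn, 2 members were lower at 1.5-fold and 2 with the denominator without mitochondrial, ribosomal protein and TCR V genes, while the 3 higher became 2 with that denominator, after thinning, with Leiden numbers, without cells holding transcripts of other cell types, at 1 cell per clonotype, with equal weight of libraries, and without library 1 or 4. In Tcm against Tn, 3 members were higher at 1.5-fold, 0 after thinning, 0 with that denominator and 0 to 1 when a library was left out, and 1 was lower without cells holding transcripts of other cell types. In cycling cells 3 were lower at 1.5-fold and 0 to 1 when a library was left out. In TIM-3+ Tex 1 was higher at 1.5-fold and 0 to 1 when a library was left out, and 0 were lower after thinning, with equal weight of cells, with equal weight of libraries, and without cells holding transcripts of other cell types. In GzmB+ Teff 1 was lower at 1.5-fold, 1 without cells holding those transcripts and 1 at 1 cell per clonotype. In TIGIT+ Teff 0 to 1 were higher and 0 to 1 lower when a library was left out, and 0 were lower after thinning, with equal weight of cells or libraries, without cells holding those transcripts and at 1 cell per clonotype. In GzmA+ Tex 3 were lower without cells holding those transcripts, Bcl2a1b, Bid and Bbc3, whose UMIs fell to 0 so that no ratio could be given. That alternative dropped every cell with a UMI of the macrophage, neutrophil, plasma cell or B cell marker lists. The plasma cell list holds Xbp1 and Prdm1, which were found in every cluster. Xbp1 stood at 26.7 to 53.1 CPM, and Prdm1 at 2.48 CPM in Tn and 73.1 CPM in TIGIT+ Teff. Ighm of the same list stood at 121 CPM in Tn, 135 CPM in Tcm and 39.1 to 85.7 CPM in the other clusters. The alternative was therefore not a filter on other cell types alone, and it weighed unequally on the clusters. It left 2718 cells, so fewer cells lay behind its values, while the cause of the other changes was not tested. The alternatives on shared barcodes and equal weight of libraries and those of the clone comparison were chosen after seeing the data. No paired analysis was possible because each group is 1 library and the labels give no replicate numbers, and clusters were compared within each library. Counts limit Pmaip1 most, with 981 UMIs in all.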

Other observations

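Cells of a cluster were also divided by their UMI number into 3 equal groups. In TIGIT+ Teff, where median depth was 2977, 6047 and 13252 UMIs in these groups, Bcl2l11 was at 197, 127 and 102 CPM and Pmaip1 at 35, 16.2 and 10.4 CPM, while Bax was at 106, 159 and 165 CPM. In Tn, with 5906, 7838 and 10124 UMIs, Bcl2l11 was at 43.8, 37.6 and 37 CPM, and in TIM-3+ Tex, with 4588, 8433 and 15182 UMIs, at 98.1, 97.6 and 93.6 CPM. Bcl2l11 of TIGIT+ Teff was thus above that of Tn in the deepest group as well as in the shallowest.

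Bid overlaps Bcl2l13 on the opposite strand, which held 1729 UMIs against 2951 of Bid. Bak1 overlaps Ggnbp1 on the opposite strand (82 UMIs), Bcl2 overlaps D630008O14Rik (101 UMIs), and Bcl2a1b overlaps Gm29094 on the same strand (17 UMIs).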
